A study of Rattus norvegicus with 18 samples.

Results

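The small RNA tags of 31 to 39 nt were the longest tags sequenced from developing rat cortical tissue. A tag is the sequence shared by identical clean reads, and its count is the number of those reads in 1 library. Every tag of this length in the second sequencing run of each tissue sample was taken, because the tags of the first run ended at 30 nt. These tags numbered 54515 of the 2612259 different tags of the second run, or of 3854058 in all 18 libraries of both runs, and they held 238820 reads. The rule used only the length and the run, and no measured level.

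The rats were of the Sprague Dawley strain, and the labels give no treatment and no number of animals. Forebrain was labelled at embryonic days E10 and E13, and cortex (somatosensory cortex in the titles) from E17 to the postnatal days P0, P3, P7, P14 and P28. There were 2 tissue samples of P0 and 1 of every other stage, so P0 gave the only spread between tissue samples, and tissue and stage cannot be told apart at E10 and E13. The second run held between 12769251 and 16590379 clean reads per library. Levels are in TPM, the reads of a tag per 1000000 clean reads of its library. In such bulk tissue, fewer cells of a type and less RNA per cell cannot be told apart. Tags of rno-miR-9a-5p, a miRNA of neural tissue, stood between 12092 and 55626 TPM in the 9 libraries of the second run. E10 stood apart in rno-miR-451-5p, a miRNA of red blood cells, whose tags of up to 30 nt reached 1762 TPM there and 21.8 to 67.2 TPM elsewhere. Another red blood cell miRNA, rno-miR-144-3p, was at 144 TPM in E10 and at no more than 4.87 TPM elsewhere.

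Mature miRNAs are cut from hairpin precursors and end well below 31 nt, so tags above that length mostly stand for other RNAs. Fragments of this size in animal tissue are known to come from tRNAs cut in or near the anticodon loop, from rRNA, from Y RNAs and from small nucleolar RNAs. A tag is given a name here only where it was found letter for letter in a RefSeq sequence, and the other tags are given by sequence.

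Tags with the same first 18 bases were counted as a family, and the 54515 tags fell into 37067 families, of which 32243 held 1 tag. Of the 10 families with the highest mean TPM, lettered A to J by rank, 8 are shown, to give the sequences behind the levels that follow. Each is represented by its most frequent tag, 5′ to 3′, with the 18 bases that define the family in capitals.
Family A: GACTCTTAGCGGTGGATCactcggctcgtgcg
Family C: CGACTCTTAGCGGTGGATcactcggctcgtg
Family D: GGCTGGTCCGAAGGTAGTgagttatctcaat
Family E: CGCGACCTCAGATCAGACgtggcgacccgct
Family G: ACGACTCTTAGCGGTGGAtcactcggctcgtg
Family H: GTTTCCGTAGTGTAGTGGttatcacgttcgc
Family I: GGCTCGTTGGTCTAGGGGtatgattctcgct
Family J: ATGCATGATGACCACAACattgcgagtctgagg

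Families A, C and G were 1 sequence with 3 different 5′ ends. The tag of C began 1 base and that of G 2 bases before that of A, and the tags of A and C shared a run of 30 bases. Among the other pairs of the 8 tags the longest shared run was 7 bases, between I and each of A, C and G. None of the 8 shown tags was found in the RefSeq sequences used here, so they carry no gene name.

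Tags of 31 to 39 nt were a small and uneven part of the libraries. They made up 0.530% of the clean reads of E10, 0.0231% of E13, 0.0205% of E17, 0.359% of P0 replicate 1, 0.168% of P0 replicate 2, 0.00816% of P3, 0.164% of P7, 0.149% of P14 and 0.124% of P28. E13, E17 and P3 stood apart, with 2953, 2841 and 1072 such reads against 20647 to 86999 in the other 6 libraries. The widest 95% Wilson interval among these 3 low libraries was 0.0223% to 0.0240% for E13, so that counting error was small beside the gaps. The P0 samples gave 0.264% ± 0.135 (SD, n = 2), a spread that covered the values of P7 and P14 but not those of E10, E13, E17, P3 and P28.

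The share did not follow the stage order in a detectable way. Spearman's rho was -0.21 over 9 tissue samples (exact permutation p = 0.589, adjusted over 3 relations 0.834) and Pearson's r was -0.34 (exact permutation p = 0.381). Without E10 and P28, the first and last stages, r was 0.26. Without E10, rho turned to 0.13. Forebrain libraries averaged 0.276% (n = 2) and cortex libraries 0.142% ± 0.116 (SD, n = 7), a difference of 0.135 percentage points (two-sided exact permutation p = 0.278, where 0.0278 is the smallest that this design allows).

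Most reads of the class were of 31 and 32 nt at every stage. Tags of 31 nt held 39.5% of the reads of the class in E10 and between 43.5% and 67.3% in the other 8 libraries. Tags of 31 and 32 nt together held between 73.6% (P28) and 89.3% (E17). Across the step from 30 to 31 nt, where the class begins, the reads of 31 nt numbered from 34.1% (E13) to 86.7% (P7) of those of 30 nt. Only 28 to 322 reads per library were of 36 to 39 nt. The mean length lay between 31.6 nt (E17) and 32.01 nt (P28), with 31.7 ± 0.0183 nt (SD, n = 2) at P0, and its rho with the stage order was 0.08 (exact permutation p = 0.834 over 9 tissue samples, adjusted 0.834).

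The class also moved against its nearest shorter neighbours. For every 100 reads of 26 to 30 nt there were 10.6 reads of 31 to 39 nt in E10, 0.879 in E13, 3.79 in E17, 17.5 and 9.12 in the P0 replicates, 0.968 in P3, 13.0 in P7, 11.0 in P14 and 9.58 in P28. The 3 low libraries were thus low also against tags of 26 to 30 nt, and the P0 replicates lay farther apart than P7, P14 and P28 did.

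Reads of 31 to 39 nt began with other bases than reads of miRNA length. On average over the 9 tissue samples, 34.2% of their reads began with G, against 3.52% of the reads of 20 to 24 nt, and the difference of 30.6 percentage points (SD 8.22) was positive in 9 of 9 samples. C was first in 20.7% against 3.95%, also higher in 9 of 9. T was first in 29.6% against 76.8%, lower in 9 of 9, as a first T (U in the RNA) is the common start of mature miRNAs. The exact sign-flip permutation test gave p = 0.00391 for each of these 3 bases, the smallest it can give with 9 samples, and 0.00521 after adjustment over the 4 bases. A was first in 15.5% against 15.7% (exact sign-flip permutation p = 0.879, adjusted 0.879). Counted once per tag instead of per read, the differences were smaller for G and T, with 10.5 percentage points for G (adjusted exact permutation p = 0.0156) and -8.20 for T (adjusted exact permutation p = 0.0208), and that of A was -2.71 (adjusted exact permutation p = 0.0156).

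Against the neighbouring tags of 26 to 30 nt, fewer reads began with A and more with C. A was first in 15.5% against 28.0%, lower in 8 of 9 samples, and C in 20.7% against 12.3%, higher in 8 of 9 (exact sign-flip permutation p = 0.00781, adjusted 0.0156, for both). Without E13, E17 and P3 both kept their direction with an adjusted p of 0.125 (exact sign-flip permutation). G was first in 34.2% against 31.1% (adjusted exact permutation p = 0.594), and T in 29.6% against 28.5% (adjusted exact permutation p = 0.938). Counted once per tag, A differed by -2.31 percentage points (adjusted exact permutation p = 0.0391) and G by 3.89, which then passed the test (adjusted exact permutation p = 0.0156). Counted in this way, the excess of C was 0.43 percentage points over tags of 20 to 24 nt and 0.14 over tags of 26 to 30 nt, with adjusted exact permutation p-values of 0.684 and 0.742. The excess of C thus lay in the reads of frequent tags, such as those of families C and E.

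The first base differed widely between libraries. Reads beginning with G held 53.1% of the class in E10, where family A led, and 16.2% in E17. Reads beginning with T held 62.0% in E17 and 13.5% in E13. No first base followed the stage order, with rho between -0.48 for G and 0.30 for T and adjusted exact permutation p-values of at least 0.791 over 9 tissue samples. With each tag counted once, rho was 0.66 for C and -0.59 for G (adjusted exact permutation p = 0.196 for both).

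Reads of 31 to 39 nt were richer in G and C. Their GC content averaged 54.6%, against 48.0% for 26 to 30 nt and 43.5% for 20 to 24 nt, and was higher in 9 of 9 samples in both comparisons (exact sign-flip permutation p = 0.00391, adjusted 0.00781 over 8 comparisons). It ranged from 49.4% (P28) to 56.9% (E13), and was 55.7% ± 1.01 (SD, n = 2) at P0. With each tag counted once, the difference was 1.22 percentage points against 26 to 30 nt (adjusted exact permutation p = 0.0833) and -0.02 against 20 to 24 nt (adjusted exact permutation p = 0.973). Reads ending in CCA, the 3 bases that cells add to the 3′ end of mature tRNAs, made up 1.43% of the class, against 1.10% of 26 to 30 nt and 1.13% of 20 to 24 nt. Neither difference passed the test (adjusted exact permutation p = 0.277 and 0.535), but with each tag counted once the excess over 26 to 30 nt was 0.71 percentage points and passed it (adjusted exact permutation p = 0.0469).

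Most tags were rare and a few were in every library. Of the 54515 tags, 49122 (90.1%) were found in 1 library only and held 23.7% of the reads of the class. The 41 tags found in all 9 libraries held 44.3%. Their share was lowest in E13 (14.0%) and highest in E17 (70.6%). Single-read tags held 59.2% of the reads of the class in E13 and between 14.7% and 38.99% in the other libraries.

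The 10 most frequent tags of a library held 31.1% of its reads of 31 to 39 nt in E10, 16.0% in E13, 63.0% in E17, 49.6% and 38.3% in the P0 replicates, 45.8% in P3, 44.2% in P7, 46.8% in P14 and 23.5% in P28. The mean of 39.8% was above the 20.4% held by the 10 most frequent tags of 26 to 30 nt, in 9 of 9 samples (exact sign-flip permutation p = 0.00391, adjusted 0.00781), a difference of 19.4 percentage points. With the 10 most frequent families in place of tags it was 10.2 (adjusted exact permutation p = 0.0469). The 10 most frequent tags of 20 to 24 nt held 47.7%, a difference of -7.90 percentage points (adjusted exact permutation p = 0.0833). This difference passed the test without E17, with -10.3 (adjusted exact permutation p = 0.0125). It was -21.3 for the 100 most frequent tags and -20.8 for the 10 most frequent families (adjusted exact permutation p = 0.00781 for both). The 10 most frequent tags of the class took no order with stage (rho 0.10, exact permutation p = 0.800 over 9 tissue samples, adjusted 0.834).

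Compared over 18 bases and at least 2 reads, most reads had a 5′ end that was also read in shorter tags. On average 69.8% of the reads of 31 to 39 nt had first 18 bases that at least 2 reads of the first run of the same tissue sample also had, from 58.3% in E13 to 78.9% in E17. For tags of 26 to 30 nt this was 76.3%, and for tags of 20 to 24 nt it was 98.0%. The values depend on the setting. With at least 10 reads asked of the first run, the difference from 26 to 30 nt moved from -6.54 to -14.9 percentage points. That from 20 to 24 nt moved from -28.2 to -46.4. With 25 bases in place of 18, the difference from 26 to 30 nt was -20.4. Tags of both shorter classes could match their own copies in the first run, which ends at 30 nt, and the long tags could match only shorter ones. The lengths thus favour this order, and no test of it is given.

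The most frequent tag was not the same at all stages. Of the single tags, in the 7 libraries where the leading one belongs to a family shown here, a tag of family A led E10 and both P0 replicates, a tag of family E led E13 and P3, and the shown tag of family D led P14 and P28. The leading tag held 13.4% of the reads of the class in E10 and 14.2% in P0 replicate 1, and 3.64% in P28. A pair of ends of family A are set side by side, with the first 18 bases in capitals, because they exchanged places between E10 and P0.
Family A, 31 nt: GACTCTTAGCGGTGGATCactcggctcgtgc
Family A, 32 nt: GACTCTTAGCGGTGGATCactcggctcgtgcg
The tag of 32 nt was at 710 TPM in E10, 0.548 in E13, 1.23 in E17, 173 and 33.6 in the P0 replicates, 1.37 in P3, 21.3 in P7, 13.3 in P14 and 8.74 in P28. The tag of 31 nt was at 6.21, 5.64, 11.6, 510.0, 124, 5.18, 79.3, 94.9 and 32.4 TPM in the same order of libraries. E10 was the only library in which the longer of these ends was the more frequent.

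Among reads of 31 nt or more, families A, C and G mostly shared a 3′ end in E10 from all 3 starts. Within these lengths, E10 had 93.2% of family A at 32 nt, 71.4% of C at 33 nt and 63.2% of G at 34 nt, which is 1 common last base. With the reads of 31 to 39 nt of all 3 families counted from the first base of A, 86.1% of 19004 reads in E10 ended at base 32 and 0.973% at base 31. In each of the other 8 libraries more of these reads ended at base 31 (45.5% to 58.9%) than at base 32 (5.95% to 15.5%). Ends before base 31 are cut off by the length limit in family A and were not compared, and in E10 the most frequent length of C and G was 19 nt over all lengths. The P0 replicates, with 15.5% and 14.7% at base 32, differed far less from each other than from E10, which had 1 tissue sample and thus no test.

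Together, families A, C and G held 21.8% of the reads of the class in E10, 5.69% in E13, 13.9% in E17, 41.7% and 18.9% in the P0 replicates, 18.6% in P3, 15.8% in P7, 14.2% in P14 and 7.06% in P28. Family A alone was at 817 TPM in E10, 7.36 in E13, 13.8 in E17, 743 and 183 in the P0 replicates, 8.23 in P3, 131 in P7, 122 in P14 and 56.5 in P28. Its level differed 4.05-fold between the P0 replicates, and E10 lay only slightly above the higher of them. Family G was the most uneven of the 3 at P0, at 312 and 32.8 TPM, 9.52-fold apart.

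Families D and E led at other stages. Family D was at 338 TPM in E10, 1.33 in E13, 2.68 in E17, 72.1 and 47.8 in the P0 replicates, 3.43 in P3, 194 in P7, 222 in P14 and 81.9 in P28. Its share of the class was 11.8% at P7 and 14.9% at P14, above its 2.01% and 2.84% at P0 and its 6.38% in E10. Family E was at 73.1 TPM in E10, 11.0 in E13, 7.74 in E17, 254 and 79.4 in the P0 replicates, 9.52 in P3, 135 in P7, 72.2 in P14 and 45.3 in P28. It ended at 31 nt in 76.5% to 90.0% of its reads of the class in 8 libraries. In E10 it ended at 34 nt in 50.1% and at 31 nt in 15.3%.

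Families H, I and J, like A and D, were highest in E10. That library also stood apart in red blood cell miRNAs, whose part in these levels was not tested. Family H was at 276 TPM in E10, 0.157 in E13, 0.940 in E17, 84.3 and 7.45 in the P0 replicates, 0.0762 in P3, 9.86 in P7, 5.69 in P14 and 4.46 in P28. The P0 replicates were 11.3-fold apart in H, and E10 lay 3.27-fold above the higher one. Family I was at 110 TPM in E10, listed at 0 in E13, at 0.434 in E17, 15.4 and 17.6 in the P0 replicates, 0.228 in P3, 4.72 in P7, 3.61 in P14 and 1.87 in P28. The count of 0 in E13 allows up to 0.235 TPM. Family J was at 59.0 TPM in E10, 0.157 in E13, 0.145 in E17, 27.2 and 6.23 in the P0 replicates, 0.0762 in P3, 4.11 in P7, 7.09 in P14 and 8.98 in P28. The levels in E13, E17 and P3 rest on 2, 2 and 1 reads for J, and on 2, 13 and 1 reads for H.

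Long and short tags of a family stood in no fixed proportion. The share of a family's reads of 18 to 39 nt that lay at 31 nt or more ranged from 2.21% (E13) to 41.9% (E10) for family A. For J it was 99.0% in E10, where only 0.609 TPM lay at 18 to 30 nt, and at most 15.3% in the other libraries, where 19.7 to 151 TPM lay at 18 to 30 nt. For H, 4086 TPM lay at 18 to 30 nt in E10 and 36.5 to 146 TPM in the other libraries, and its most frequent length was 22 nt in E10. E13 had the lowest long share in 6 of the 8 families shown. P3 had it in H and J, where P3 had 1 long read and E13 had 2, too few to rank these libraries.

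The first run gave other levels of the same starts at 18 to 30 nt. For family A these were 314 TPM in the second and 86.7 in the first run of P0 replicate 2, and 197 and 117 in P3. In P0 replicate 1 they were 1773 and 5.78 TPM, and in E13 326 and 36.97. Family E differed less, with 337 and 412 TPM in P0 replicate 1 and 820 and 1443 in E13. The runs of P0 replicate 2 and P3 also stood apart in the tags of 30 nt, since 54.4% and 59.1% of their reads of 31 to 39 nt had first 30 bases found as a tag of the first run. E10 had 40.2%, and the other 6 libraries had 4.95% to 8.77%.

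Named matches covered few of the reads. Of the 54515 tags, 3145 (5.77%) began with a whole mature miRNA, lay inside a miRNA hairpin, or lay inside an annotated small RNA or rRNA gene that a RefSeq gene start window covers. They held between 1.75% (P0 replicate 1) and 3.13% (P28) of the reads of the class. Sequence was searched in 419 hairpins and 33469 windows of 300 bases of the assembly GRCr8, while most tRNA and rRNA genes lie outside these windows and were not analysed here.

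The leading named gene was a glycine tRNA. Of the tags, 27 lay inside Trnag-gcc2, a tRNA gene of 71 bases on chromosome 10, positions 54322802 to 54322872 of GRCr8, within the start window of Hes7. The most frequent of them is shown with its first 18 bases in capitals, at chr10:54322839-54322872 on the minus strand.
Trnag-gcc2, 34 nt: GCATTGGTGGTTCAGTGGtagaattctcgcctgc
It began at the first base of the annotated gene and covered 34 of its 71 bases. The 27 tags summed to 27.2 TPM in E10, 0.157 in E13, 1.59 in E17, 5.52 and 3.08 in the P0 replicates, 0.228 in P3, 4.997 in P7, 1.77 in P14 and 8.62 in P28. E10 was the highest library, P28 came next, and the P0 replicates differed 1.79-fold. Other copies of this tRNA may share these tags, since reads of identical copies cannot be assigned.

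Tags of 3 other tRNA genes were rare. Trnam-cau1 (6 tags) reached 0.942 TPM in P0 replicate 1, Trnac-gca15 (3 tags) 0.365 TPM in E10 and Trnat-agu1 (5 tags) 0.181 TPM in P28. The most frequent tags of Trnam-cau1 and Trnac-gca15 began at the first base of the gene. An rRNA gene, LOC120099695, on chromosome 11 at positions 488049 to 489920, held 107 tags, and its copy LOC120102105 on the same chromosome held the same 107. They summed to at most 3.78 TPM (E10), with 3.05 TPM in E13, where they made up more of the class than elsewhere. Tags in annotated rRNA genes within the gene start windows held 1.32% of the class in E13 (39 reads) and 0.0468% to 0.280% in the other libraries. These values are not the share of all rRNA, since most rRNA genes lie outside the windows.

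Hairpins held few long tags. In all, 49 tags lay inside 25 of the hairpins, and they held 0.00853% to 0.203% of the reads of the class. Mir127, a hairpin of 97 bases on chromosome 6 at positions 134328454 to 134328550, held 9 tags and 103 reads, more than any other hairpin. Its most frequent tag is shown, first 18 bases in capitals.
Mir127, bases 23 to 56: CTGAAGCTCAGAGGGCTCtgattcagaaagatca
Tags of Mir127 summed to 0.853 TPM in E10 (14 reads), 0.269 in P0 replicate 1 (4 reads), 2.12 in P7 (31 reads), 1.33 in P14 (21 reads) and 1.99 in P28 (33 reads), and to 0 in the other 4 libraries.

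More tags began with a whole mature miRNA and went on with further bases. There were 2949 such tags, of 153 mature sequences, and they held from 0.406% (E13) to 2.62% (P0 replicate 2) of the reads of the class. In only 11 of them did all bases after the miRNA, up to the last, continue its hairpin. Near-complete continuations were not counted among the 11, such as the most frequent tag of rno-miR-451-5p, with 30 bases equal and 1 difference. For the most frequent of the 254 tags of rno-let-7b-5p no hairpin match was scored, so its continuation could not be judged. In 838 of the 2949 tags the rest was made of A and T alone. These 838 summed to 46.3 TPM in E10, 0.157 in E13, 0.723 in E17, 24.4 and 14.8 in the P0 replicates, 0.381 in P3, 8.69 in P7, 6.14 in P14 and 4.10 in P28. The mature sequences concerned are shown from RefSeq, with the seed (bases 2 to 8) in capitals, and let-7b and let-7c share a seed.
rno-miR-181b-5p: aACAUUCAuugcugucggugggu
rno-let-7b-5p: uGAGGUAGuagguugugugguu
rno-let-7c-5p: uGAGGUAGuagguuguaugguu
rno-miR-128-3p: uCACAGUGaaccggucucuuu
rno-miR-451-5p: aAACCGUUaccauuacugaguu
rno-miR-127-3p: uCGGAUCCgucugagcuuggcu

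The most frequent long tags that began with 4 of these miRNAs follow, with the mature part in capitals and the bases after it in lower case.
miR-181b-5p tag: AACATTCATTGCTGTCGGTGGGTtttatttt
let-7b-5p tag: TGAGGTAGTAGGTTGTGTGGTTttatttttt
let-7c-5p tag: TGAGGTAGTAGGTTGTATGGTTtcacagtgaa
miR-451-5p tag: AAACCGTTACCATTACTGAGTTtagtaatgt
The miR-181b-5p tag equalled its hairpin up to base 25 and differed from it at 3 bases in all. All 195 tags of miR-181b-5p summed to 23.6 TPM in E10, 6.26 and 3.22 in the P0 replicates and at most 0.949 elsewhere. The 254 tags of let-7b-5p summed to 13.5 and 10.8 TPM in the P0 replicates, to 0.304 in E10 and to at most 1.71 in the other libraries. let-7 miRNAs are known to rise as embryonic tissue matures. Ends of A and T were found on the miRNA that led in E10 and on the one that led at P0.

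In 100 tags the bases after the miRNA began like another mature miRNA. In the let-7c-5p tag shown, the 10 bases after the miRNA were the first 10 of rno-miR-128-3p, a miRNA of the brain. This tag had 32 reads in P14 (2.02 TPM), 8 in P7, 4 in P28, 1 in each P0 replicate and none in E10, E13, E17 and P3. The 100 tags summed to 8.10 TPM in P14, 2.23 in P28, 1.64 in P7, 1.35 and 0.716 in the P0 replicates and at most 0.0783 in the other libraries, with 0 in E10 and P3. Of the 2454 tags with at least 9 bases after the miRNA that did not continue a hairpin up to the last base, 4.20% had a miRNA start of 9 bases there. Of the 51566 tags that began with no mature miRNA, 0.233% ended in such a start. The remaining 2000 of the 2949 tags fitted none of the kinds named here. They held 0.271% (E13) to 1.87% (P3) of the reads of the class, and whether adapter bases were left in them was not tested.

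The miR-451-5p tag followed the hairpin for 30 bases. rno-miR-451-5p is known to be cut from its hairpin by Argonaute 2 in place of Dicer, which leaves a long intermediate. The tag shown differed from the hairpin only at its last base, G31T, counted from 1 at the 5′ end of the mature miRNA with the base of the hairpin first. It had 142 reads in E10 (8.65 TPM) and none in the other 8 libraries. The 14 long tags of this miRNA summed to 10.6 TPM in E10, and to 0.0673 in P0 replicate 1. Its shorter tags were also highest in E10, 26.2-fold above the next library, as given in the opening values.

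The slope of each tag over the stage order was tested with edgeR's quasi-likelihood test on all tags of the second run with at least 10 counts in at least 2 libraries. Of the 54515 tags of 31 to 39 nt, 259 (0.475%) passed this filter, and these held 60.5% of the reads of the class. At a Benjamini-Hochberg adjusted p under 0.05 over all 25214 tags tested, 8 of the 259 rose with stage and 6 fell, together 5.41%. Among all tags tested, 16.9% were called, 6.78% rising and 10.1% falling, and the gap between 5.41% and 16.9% was not tested. The median slope was 0.01 on the log2 scale per stage for the 259 and 0.02 for all tags tested.

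A pair of called tags reached 10 TPM and kept the sign of their slope, though not the call, in all 9 fits without 1 library, and both fell. They are shown with the first 18 bases of families H and I in capitals.
Family H, 31 nt: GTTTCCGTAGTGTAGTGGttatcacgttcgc
Family I, 31 nt: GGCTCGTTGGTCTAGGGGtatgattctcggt
The tag of family H was at 115 TPM in E10, 0.157 in E13, 0.434 in E17, 10.5 and 2.36 in the P0 replicates, 0 in P3, 0.685 in P7, 0.886 in P14 and 0.904 in P28. Its slope was -0.91 per stage (SE 0.268, adjusted p = 0.0323). The tag of family I was at 44.3 TPM in E10, 0 in E13 and E17, 1.68 and 6.45 in the P0 replicates, 0.0762 in P3, 0.205 in P7, 0.0633 in P14 and 0.181 in P28. It had 10 counts or more only in E10 and the P0 replicates, where it was high, so that the filter favoured a fall. E10 was the highest library for both, and the levels did not fall step by step, since P0 lay above E13 and E17. The red blood cell miRNAs were also highest in E10, and their part in these levels and slopes was not tested. For the tag of H, the adjusted p in the same test was 0.628 without E10 and between 0.0676 and 0.0824 without P7, P14 or P28. The other 4 falling tags were highest in E10 too, and 3 of them had 10 counts or more only in E10 and 1 of E13 and the P0 replicates, so that the filter favoured their fall as well. Summed over all lengths of the class, none of the 10 families was called in an edgeR fit of 247 families. The lowest adjusted p was 0.190 for family H, the only one of the 10 with an unadjusted p under 0.05.

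Tags that rose were rarer, and none of the 8 reached 10 TPM in any library. All 8 reached 10 counts only in libraries from P7 on, so that they passed the filter through the stages where they were high, and the filter favoured a rise. The following 6 were chosen after their values were seen, and capitals mark the first 18 bases.
Rising tag 1: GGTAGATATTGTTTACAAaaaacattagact
Rising tag 2: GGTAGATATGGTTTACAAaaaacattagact
Rising tag 3: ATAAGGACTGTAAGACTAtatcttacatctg
Rising tag 4: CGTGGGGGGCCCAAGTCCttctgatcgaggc
Rising tag 5: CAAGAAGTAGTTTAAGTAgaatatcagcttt
Rising tag 6: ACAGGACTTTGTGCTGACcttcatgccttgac
Tags 1 and 2 differed by T10G, counted from 1 at the 5′ end with the base of tag 1 first. Tag 1 had 148 reads in P28 (8.92 TPM), 26 in P7, 5 in P0 replicate 1 and at most 1 in each other library. Tag 2 had 108 reads in P28 (6.51 TPM), 12 in P7 and at most 4 in each other library. Both were mainly reads of P28 and P7, and P14 had 1 read of tag 1 and 4 of tag 2.

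Rising tag 3 was at 6.23 TPM in P7, 6.90 in P14 and 2.53 in P28, and at most 0.305 TPM in the 6 earlier libraries. It was the only rising tag that could be fitted without each of the 9 libraries. Rising tag 4 was at 2.72 TPM in P14 and 3.13 in P28, 0.548 in P7, 0.471 and 0.286 in the P0 replicates and 0 in E10, E13, E17 and P3. The remaining rising tags overlapped tag 4 nearly whole, one with the same start and 1 more base, the other with a start 1 base later. Rising tag 5 was at 5.06 TPM in P28 and at most 0.822 in the other libraries. Rising tag 6 was at 2.40 TPM in P7 and 1.39 in P14, and at most 0.269 in the other libraries, and it was not called without E10, E13 or E17. Without P28, 2 of 218 tags of the class rose and 1 fell, while 3.14% of all tags tested rose and 5.43% fell. Without E10, 17 of 196 rose and none fell (28 of 196 at an unadjusted p under 0.05, in either direction), while 5.27% of all tags tested rose and 5.01% fell.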

How the data were processed

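Total RNA was extracted with TRIzol, a fraction of 16 to 35 nt per the labels was cut from a gel, adapters were ligated and the libraries were sequenced with Illumina chemistry. The methods give reads of 35 nt and clean reads of 18 to 30 nt, and how the deposited tags of up to 39 nt were made is not given in the sources used here. The authors report the removal of low quality reads, adapters and ligation products, and adapter bases left in the tags were not searched for here. They deposited for each library the unique clean tags with their length and read count, which was neither normalized nor mapped. Tags were not mapped to a genome here either, so any sequence of other origin is in the totals. Members and lists were chosen with earlier results of these data known.

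TPM was the count divided by all clean reads of the library, times 1000000. Shares carry 95% Wilson intervals, which, like the floor of 3 counts, express counting error alone, because PCR copies are not separate molecules. Measures per library were compared between length classes with two-sided exact sign-flip permutation tests over the 9 tissue samples, and with the stage order (1 to 8) by exact permutation. Slopes were fitted to the counts with edgeR 4.0.16 (TMM, quasi-likelihood test) in R 4.3.3, for all tags of run 2 with at least 10 counts in at least 2 libraries and only the letters A, C, G and T. DESeq2 1.42.0 was an alternative. P-values were adjusted by Benjamini-Hochberg, with 0.05 as the threshold. With 1 tissue sample at most stages, they rest on the scatter of 9 samples around a line, and the labels do not say how many animals a sample held. On simulated counts with 4291 tags, the slope test recovered 200 of 200 tags simulated to change by 1 on the log2 scale per stage, and made 7 wrong calls. These counts were simulated with less scatter than the fit found in the data, so the recovery does not give the power of the test here.

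Tags were named by exact matches to RefSeq miRNA sequences and gene start windows of GRCr8, laid over the RefSeq gene table of that build. The rule for tags described singly took the leading tag of each library and the 10 families of the highest mean TPM (2 of these families are not reported here, among them the highest family of E17, P0 replicate 2, P3 and P7), and up to 5 rising and 5 falling called tags of at least 10 TPM whose slope kept its sign in all 9 fits without 1 library, 1 per family. No rising tag met it. The rising tags and the tags of tRNA, hairpin and miRNA matches shown were chosen after their values were seen. Other steps used Python 3.11.15 with pandas 2.3.3, numpy 2.4.6 and SciPy 1.17.1.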

Additional observations from a re-analysis of the deposited data

How the results depend on the processing

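No paired analysis was possible because run 2 had 1 library of each tissue sample and the run numbers do not name separate samples, so that no replicate block could be fitted to the slopes. The comparisons of length classes were paired within libraries by design, and that of shared 5′ ends is given as values only. Counts below 3 in a library could not be told from 0, and with 1 tissue sample at 7 of the 8 stages no stage could be tested singly. The cause of the following changes was not tested, beyond the smaller number of samples or tags that a setting itself brings. Differences are in percentage points, tags of 31 to 39 nt minus the class named. Without tags of a single read, first A gave a rho of 0.10 with stage and a difference of -4.63 from 20 to 24 nt (past the threshold), shared 5′ ends differed by -0.92 from 26 to 30 nt, the top 10 tags by 6.60 and tags ending in CCA by -0.088 from 20 to 24 nt. With each tag counted once, first A gave a rho of 0.067 and differed by -2.71 (past the threshold) and first C by 0.43 from 20 to 24 nt, first C by 0.14, G by 3.89 (past the threshold) and T by -1.72 from 26 to 30 nt, CCA by 0.71 from 26 to 30 nt (past the threshold), and GC content by 1.22 from 26 to 30 nt and -0.023 from 20 to 24 nt. The top tag alone had a rho of -0.46 with stage, and the top 100 tags and top 10 families differed by -21.3 and -20.8 from 20 to 24 nt, both past the threshold. In cortex alone, rho with stage was 0.52 for length (adjusted exact permutation p = 0.352) and -0.61 for the top 10 tags. For first A, C, G and T it was 0.54, -0.036, 0.13 and -0.34. Without E13, E17 and P3, chosen after seeing the data, the 6 samples left allow no p below 0.0313 in the sign-flip permutation test of differences between length classes. The value of rho was then -0.12 for the top 10 tags, 0.17 for first A and -0.029 for first C, and first A differed by 0.68 from 20 to 24 nt. From 26 to 30 nt, first A then differed by -11.3, first C by 7.56, first T by -2.39, shared 5′ ends by -5.92, the top 10 tags by 17.7 and GC content by 6.34, and from 20 to 24 nt shared 5′ ends by -28.8 and GC content by 10.3. The differences of GC content and of the top 10 tags given here, past the threshold with all 9 samples, did not pass it in this setting.

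Leaving out 1 tissue sample moved the rho with stage between -0.42 and 0.13 for the share, -0.31 and 0.36 for length, -0.24 and 0.41 for the top 10 tags, -0.37 and 0.25 for first A, and -0.20 and 0.32 for first C. The range was -0.75 (without E17, adjusted exact permutation p = 0.151) to -0.25 for first G, and 0.048 to 0.53 for first T. Differences from 20 to 24 nt ranged from -0.94 to 0.67 for first A and -10.3 to -6.16 for the top 10 tags, the latter past the threshold without E17. Those from 26 to 30 nt ranged from -2.27 to 2.21 for first T and -7.59 to -4.74 for shared 5′ ends. Called tags with a slope ranged from 3 (without P28) to 21 (without E13), with 6 without P7 and 4 without P14. They numbered 69 of 965 with at least 3 counts in at least 2 libraries (31 rising, 38 falling), 21 of 259 with DESeq2 (14 rising, 7 falling), 12 of 196 in cortex alone, all rising (31 at an unadjusted p under 0.05), and 20 of 258 without E13, E17 and P3 (3 rising, 17 falling). Of all tags tested, 11.9%, 30.1%, 7.25% and 7.15% were called in these settings, and 8.57% without P28, 12.3% without E13, 8.62% without P7 and 10.9% without P14. The slope of the named tag ranged from -1.03 to -0.37 for family H and from -1.28 to -0.82 for family I, and in cortex alone they were -0.60 and -1.14, neither called. Over all settings, 270 values of the main results kept their direction and side of the threshold, or a count within 1.5 times that reported. Of the others, some of them given here, 30 changed direction, 18 lost the threshold and 7 passed it, and 4 counts moved by more than 1.5 times.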
